A study of Mus musculus with 3 samples.

Results

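The data set held 4 genes of the vessel wall's inner surface and its signalling, read in RNA-seq libraries of the mouse suprarenal aorta: *Glycam1* and *Emcn*, which encode sialomucins, *Lrg1*, which encodes a secreted leucine-rich glycoprotein, and *Ednrb*, which encodes the endothelin B receptor. They are the entries whose gene name equals 1 of these 4 symbols, out of 1238 different entries listed in at least 1 of 3 comparisons. They were chosen by their FPKM values in these same libraries, so their levels and ratios are given as a description and carry no test.

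There were 3 cohorts with 1 library each, AngII AAA, AngII No AAA and Saline. All animals were male apoE null C57BL/6 mice, which lack apolipoprotein E and become hyperlipidemic, and pumps were implanted at 12 weeks of age. The Saline cohort received saline and was harvested on day 10. The AngII No AAA cohort received angiotensin II (AngII), had no aneurysm, and was harvested on day 10. The AngII AAA cohort received AngII and was harvested within 24 hours of the diagnosis of a dissecting abdominal aortic aneurysm (AAA), so that each of its animals was harvested on its own day, by day 10. The 2 AngII cohorts were separated by outcome and not by treatment, and time of harvest and aneurysm cannot be told apart. Each library (here also called a pool) combined equal amounts of RNA from animals of a cohort, taken from a part of each aortic segment. The paper included only RNA samples that passed an absorbance cutoff, so that a pool need not hold every animal of its cohort. Because the RNA was pooled, no spread between animals could be measured and no p-value is given. The labels give 35 to 43 M (mega) reads per library. Values are FPKM, that is, fragments scaled for transcript length and for the number of mapped fragments, which allow levels of different genes to be compared per length, but the number of reads behind any single value is not in these files.

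Sialomucins are cell-surface or secreted proteins whose extended, heavily O-glycosylated stretches carry sialic acid. GlyCAM-1, the product of *Glycam1*, is a secreted mucin of the high endothelial venules of lymph nodes, where its sulfated sugars are bound by lymphocytes, and it is also made by the lactating mammary gland. Endomucin, the product of *Emcn*, is a membrane sialomucin of capillary and venous endothelium that limits leukocyte contact with the vessel wall. LRG1 modifies transforming growth factor beta (TGF-β) signalling in endothelial cells through the co-receptor endoglin, and it is also an acute phase protein of the liver and is stored in neutrophil granules. The endothelin B receptor binds endothelins on endothelial cells, where it leads to nitric oxide release and clears endothelin from the blood, and on smooth muscle cells, where it contributes to constriction.

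The start regions of the 4 genes are shown because each gene was higher in the AngII AAA than in the Saline pool, and they show how unlike these regions are in base composition. RefSeq windows from 250 bases before to 50 bases after the annotated start were matched by symbol for all 4 genes, and each is read 5′ to 3′ on the gene's own strand in the build GRCm38.p6. The *Glycam1* window is chr15:103565032-103565331 (minus strand), that of *Lrg1* is chr17:56121897-56122196 (minus strand), that of *Emcn* is chr3:137340828-137341127 (plus strand), and that of *Ednrb* is chr14:103843652-103843951 (minus strand). Capitals mark matches, on either strand, to 5 motifs. The TATA box was searched as TATAAA. Sites of STAT factors were searched as TTCNNNGAA. Sites of ETS factors were searched as AGGAAG. Those of AP-1 were searched as TGANTCA. Those of GATA factors were searched as AGATAA, and no match overlapped another motif.
Glycam1: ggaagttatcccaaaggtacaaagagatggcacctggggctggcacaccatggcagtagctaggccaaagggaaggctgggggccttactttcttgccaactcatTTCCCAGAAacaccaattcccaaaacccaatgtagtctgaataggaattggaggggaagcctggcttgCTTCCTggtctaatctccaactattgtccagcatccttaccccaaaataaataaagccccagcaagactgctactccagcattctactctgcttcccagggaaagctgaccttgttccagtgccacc
Lrg1: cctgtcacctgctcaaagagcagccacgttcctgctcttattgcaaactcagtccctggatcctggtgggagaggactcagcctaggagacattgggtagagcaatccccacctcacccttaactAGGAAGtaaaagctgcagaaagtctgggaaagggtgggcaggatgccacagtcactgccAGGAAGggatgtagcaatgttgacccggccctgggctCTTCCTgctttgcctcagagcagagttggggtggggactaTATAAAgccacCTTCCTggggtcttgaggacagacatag
Emcn: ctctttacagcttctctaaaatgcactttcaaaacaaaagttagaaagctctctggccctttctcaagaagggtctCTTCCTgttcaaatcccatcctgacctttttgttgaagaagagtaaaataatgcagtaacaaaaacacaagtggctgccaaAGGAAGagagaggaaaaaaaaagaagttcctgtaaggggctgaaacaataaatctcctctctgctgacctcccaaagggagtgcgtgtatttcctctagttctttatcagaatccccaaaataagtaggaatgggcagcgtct
Ednrb: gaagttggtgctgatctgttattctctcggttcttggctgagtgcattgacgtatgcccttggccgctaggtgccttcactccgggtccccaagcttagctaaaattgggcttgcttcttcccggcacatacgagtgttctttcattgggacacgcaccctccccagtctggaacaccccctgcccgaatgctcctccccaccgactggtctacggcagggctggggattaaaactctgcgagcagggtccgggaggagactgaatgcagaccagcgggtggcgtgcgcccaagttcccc

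The ETS letters matched 4 times in the *Lrg1* window, 2 times in that of *Emcn* and 1 time in that of *Glycam1*, and did not match in that of *Ednrb*. Of all 32851 RefSeq windows of this length, 35.4% held a match to these letters. The STAT letters matched in the *Glycam1* window, 145 to 137 bases before the start, and in 8.30% of all windows. In the *Lrg1* window, TATAAA lay 12 to 17 bases after the annotated start, and 13.6% of all windows held this motif. None of the 4 windows held the AP-1 or GATA letters, which were in 7.81% and 11.2% of all windows. The *Ednrb* window held 15 CpG dinucleotides, whereas that of *Glycam1* held 0 and those of *Lrg1* and *Emcn* held 2 each, and the median over all windows was 7. These matches are a description of the letters in these windows, and binding was not measured.

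Across the libraries, *Glycam1*, *Lrg1* and *Ednrb* were each highest in the AngII AAA pool, intermediate in the AngII No AAA pool and lowest in the Saline pool. Of these genes, only *Glycam1* was listed in every comparison. *Lrg1* was not listed in AngII AAA vs. AngII No AAA, nor *Ednrb* in AngII No AAA vs. Saline. Those steps of the order were read from the other comparisons. *Emcn* was 3.09 times as high in the AngII AAA pool as in the Saline pool, and no AngII No AAA value was read for it. *Glycam1* was listed at 0 in the Saline pool and at 34.7 FPKM in the AngII AAA pool. The order of the 3 libraries seen for *Glycam1*, *Lrg1* and *Ednrb* was the most common one in the data, shared by 424 of the 558 entries (76.0%) that have a value in all 3 libraries. In bulk tissue, more cells of a type and more RNA per cell cannot be told apart.

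**Figure D1:**
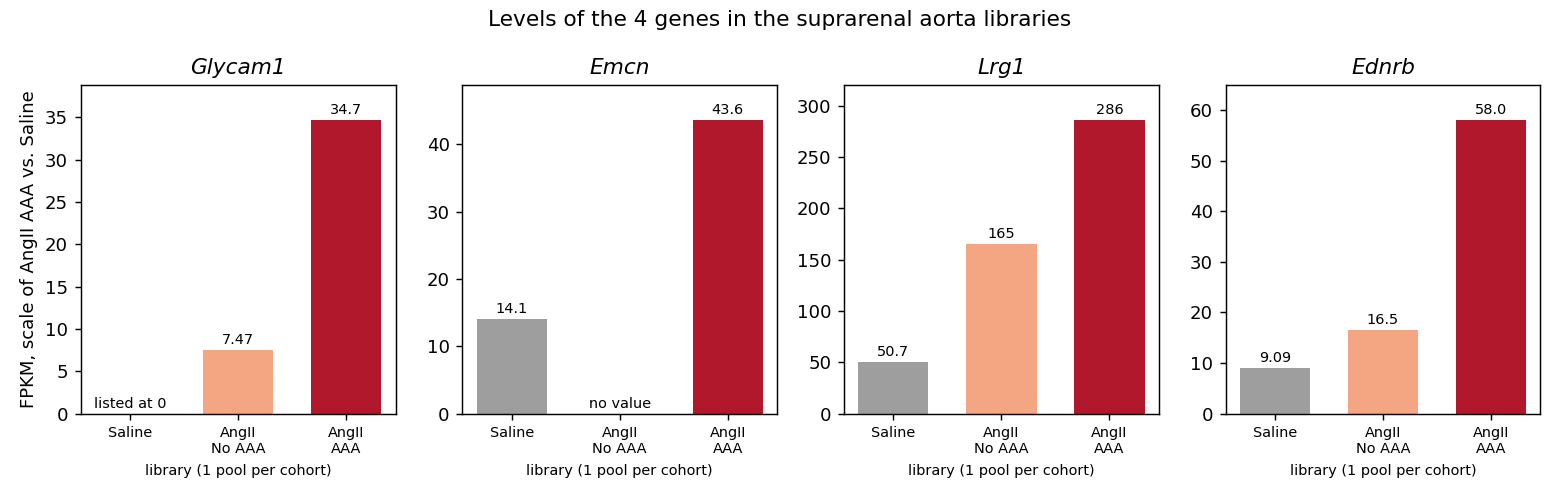
Level of each gene (FPKM on the common scale, linear axis from 0, separate for each gene) in the 3 libraries, 1 bar per library and no error bars, because each cohort is 1 pool. The AngII AAA bar is the highest of those drawn in every panel, *Glycam1* is listed at 0 in the Saline pool, and *Emcn* has no AngII No AAA value.

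Each file holds 2 libraries, and the FPKM of a library differed between the files that hold it by a constant: 0.968 for AngII AAA over 385 entries, 1.09 for Saline over 227 entries and 0.914 for AngII No AAA over 102 entries. Levels in all 3 libraries were therefore put on a common scale, taken from the values of AngII AAA vs. Saline, with the AngII No AAA pool tied to it through the AngII AAA pool. Tying it through the Saline pool instead changed the AngII No AAA levels by 3.20%.

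*Glycam1* (chr15:103393190-103395512 in the authors' coordinates, mm9) was the only one of the 4 genes listed in all 3 comparisons. In AngII AAA vs. Saline it was at 34.7 FPKM in the AngII AAA pool and listed at 0 in the Saline pool. For AngII No AAA vs. Saline the values were 7.91 FPKM and, again, a listing at 0 in the Saline pool. Because FPKM files give no counts, no fold is given against a library listed at 0. Its levels in AngII AAA vs. AngII No AAA were 33.5 and 7.23 FPKM, a ratio of 4.64 and a log2 ratio of 2.21. That ratio ranked 137th from the top of the 600 entries of the comparison. It was 1 of 20 entries of AngII AAA vs. Saline and 1 of 13 entries of AngII No AAA vs. Saline that were at 0 in the Saline pool. Among the 10 entries at 0 in the Saline pool that have a value in all 3 libraries, *Glycam1* had the highest AngII AAA level, followed by *Stfa2l1*, a neutrophil cystatin, at 21.1 FPKM.

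*Emcn* (chr3:137004041-137094033, mm9) was listed in AngII AAA vs. Saline alone. It was at 43.6 FPKM in the AngII AAA pool and at 14.1 FPKM in the Saline pool, a log2 ratio of 1.63. This difference was small for that list, where it ranked 593rd from the top of 715 entries, of which 605 were higher in the AngII AAA pool, and the smallest finite ratio among those 605 was 2.93. Its log2 ratio minus the median was -0.64, the median being 2.26 over the 677 entries with both values above 0. In the Saline pool, *Emcn* was the second most abundant of the 4 genes, above *Ednrb* at 9.09 FPKM.

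*Lrg1* (chr17:56259100-56261369, mm9) was the most abundant of the 4 genes in every library. In AngII AAA vs. Saline it was at 286 and 50.7 FPKM, a ratio of 5.64 and a log2 ratio of 2.50. In AngII No AAA vs. Saline it was at 175 and 55.4 FPKM, a ratio of 3.16 and a log2 ratio of 1.66. These comparisons share the Saline pool, and their values are therefore not independent. *Lrg1* was not listed in AngII AAA vs. AngII No AAA, which holds only entries that the authors kept at an unadjusted p-value under 0.05. On the common scale its levels were 286 FPKM in the AngII AAA pool, 165 FPKM in the AngII No AAA pool and 50.7 FPKM in the Saline pool. The ratio of the AngII AAA to the AngII No AAA pool was thus 1.73, or 1.79 when tied through the Saline pool. By level, *Lrg1* ranked 25th of the 715 entries in the AngII AAA pool and 26th of the 564 entries of AngII No AAA vs. Saline in the AngII No AAA pool.

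*Ednrb* (chr14:104213831-104243693, mm9) had the largest finite ratio to the Saline pool of the 4 genes. Its levels in AngII AAA vs. Saline were 58.0 and 9.09 FPKM, a ratio of 6.38 and a log2 ratio of 2.67. The levels in AngII AAA vs. AngII No AAA were 56.2 and 15.9 FPKM, a ratio of 3.52 and a log2 ratio of 1.82. These comparisons share the AngII AAA pool. *Ednrb* was not listed in AngII No AAA vs. Saline, which holds only entries that the authors kept at an unadjusted p-value under 0.05. Its common-scale levels in these pools were 16.5 and 9.09 FPKM, a ratio of 1.81, or 1.76 when tied through the Saline pool. The AngII No AAA value of *Ednrb* was thus nearer to the Saline value than to the AngII AAA value.

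The genes differed in where the AngII No AAA pool lay between the other libraries. As a share of the distance in FPKM from the Saline to the AngII AAA level, it lay at 15.1% for *Ednrb*, 21.6% for *Glycam1* and 48.6% for *Lrg1*. Over the other 476 entries that have all 3 values and are higher in the AngII AAA than in the Saline pool, the median share was 16.7%, with quartiles at 8.38% and 34.5%. *Lrg1* was thus above the upper quartile, and *Ednrb* and *Glycam1* were between the quartiles. With 1 library per cohort, these differences between genes were not tested. An entry has all 3 values only if it was listed in more than 1 comparison, and listing depends on the same levels. *Lrg1* was not listed in AngII AAA vs. AngII No AAA, nor *Ednrb* in AngII No AAA vs. Saline. Their shares therefore follow in part from the authors' filter, and nothing further is read from them.

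A ratio of at least 4, or a second-named library at 0, was used to describe the size of the differences. In AngII AAA vs. Saline, 3 of the 4 genes (*Glycam1*, *Lrg1* and *Ednrb*) passed it as higher in the AngII AAA pool, against 63.1% of the 715 entries listed. *Glycam1* passed in AngII AAA vs. AngII No AAA and *Ednrb* did not, against 31.5% of the 600 entries. In AngII No AAA vs. Saline, *Glycam1* passed by its 0 in the Saline pool and *Lrg1* did not, against 11.9% of the 564 entries. In the other direction, 9.23%, 6.33% and 4.26% of the entries passed in the same order of comparisons, and none of the 4 genes did. The values that chose the genes come from these comparisons, and nothing is read from the counts.

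**Figure D2:**
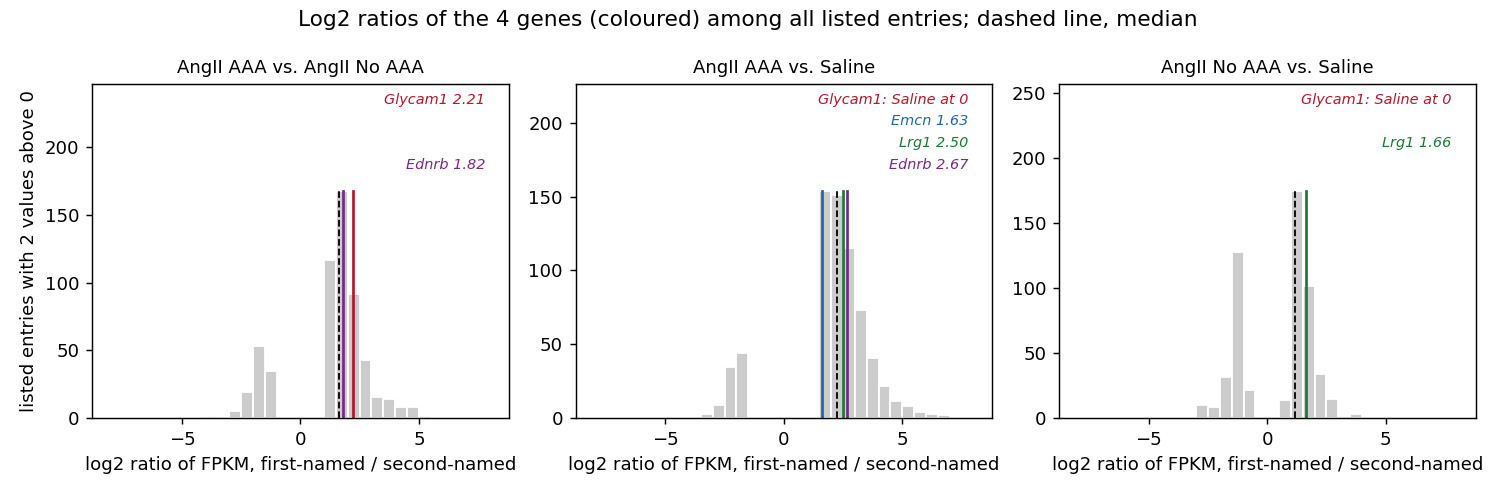
Number of listed entries (vertical axis) by log2 ratio of FPKM (horizontal axis, bins of 0.5) in the 3 comparisons, for entries with both values above 0, with coloured lines for the 4 genes and a dashed line at the median. *Ednrb* (1.82 and 2.67) and *Lrg1* (2.50 and 1.66) lie within 0.5 of the medians of 1.63, 2.26 and 1.16 of their comparisons, and *Emcn* (1.63) lies below the median of AngII AAA vs. Saline. The gap around 0 is left by the authors' filter, which kept entries with an unadjusted p-value under 0.05.

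Of all listed entries, 84.6% were higher in the first-named library in AngII AAA vs. Saline, 79% in AngII AAA vs. AngII No AAA and 63.5% in AngII No AAA vs. Saline, so that a gene list whose genes are mostly higher is like the lists as a whole. Of 30 endothelial markers, 7 were listed in any comparison, all of them higher in the first-named library. The lists hold only entries that the authors kept at an unadjusted p-value under 0.05. The 7 listed markers were thus selected for differing between libraries. The defining markers *Pecam1*, *Cdh5*, *Kdr*, *Tek* and *Vwf* were among the 23 without a value in these lists, so that the total endothelial RNA of the libraries could not be compared. In AngII AAA vs. Saline, 6 markers were listed. All 6 were at least 4-fold higher in the AngII AAA pool or at 0 in the Saline pool, beside 63.1% of all entries. Their median log2 ratio was 2.56 over the 5 finite values, beside 2.26 over all entries. *Ctla2a*, a cysteine protease inhibitor, was at 80.2 and 8.47 FPKM, and its close copy *Ctla2b* was at 10.4 FPKM and listed at 0 in the Saline pool, where reads may be split between the near-identical copies. The apelin receptor gene *Aplnr* was at 16.4 and 2.57 FPKM and its ligand gene *Apln* at 9.80 and 1.66 FPKM. *Esm1*, a proteoglycan of the tips of sprouting vessels, was at 7.34 and 1.45 FPKM. *Ctla2a* and *Apln* were the 2 markers listed in AngII AAA vs. AngII No AAA, with log2 ratios of 2.62 and 2.37. In AngII No AAA vs. Saline, 3 were listed, and *Esm1* had the largest log2 ratio, 2.87. On the common scale *Esm1* was highest in the AngII No AAA pool, at 11.0 FPKM, unlike *Glycam1*, *Lrg1* and *Ednrb*.

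Of the other 19 genes for sialomucins, the CD34 family and the enzymes that build their sugars, 3 were listed, each with its highest level in the AngII AAA pool. *Selplg*, the P-selectin ligand of leukocytes, was at 90.0 FPKM in the AngII AAA and 9.06 FPKM in the Saline pool. *Cd68*, a macrophage sialomucin, had a log2 ratio of 3.95 in the same comparison. *Gcnt1*, which starts the core 2 branch of O-glycans on which selectin ligands are built, was at 20.6 FPKM in the AngII AAA, 5.79 FPKM in the AngII No AAA and 5.31 FPKM in the Saline pool on the common scale. The median log2 ratio of the 3 genes was 3.31 against the Saline pool and 2.23 against the AngII No AAA pool, beside 2.26 and 1.63 over all entries. In AngII No AAA vs. Saline only *Cd68* was listed, with a log2 ratio of 1.68. No value was read for *Cd34*, *Podxl* and *Madcam1*, or for *Chst4* and *Fut7*, whose enzymes complete the sugars of such mucins.

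Of 14 selectin and leukocyte adhesion genes, 8 had no value and 6 were listed in AngII AAA vs. Saline, each with the higher level in the AngII AAA pool and 4 of them at least 4-fold, beside 63.1% of all entries. Their median log2 ratio was 2.81, beside 2.26 over all entries. Among them were the leukocyte integrin genes *Itgam* (4.33) and *Itgb2* (3.39). Against the AngII No AAA pool, 4 genes were listed, each higher in AngII AAA, with a median log2 ratio of 2.61 beside 1.63 over all entries, and in AngII No AAA vs. Saline 2 were, *Itgam* (1.74) and the endothelial adhesion gene *Vcam1* (1.20). The endothelial selectin genes *Sele* and *Selp* had no value in these lists.

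Lymph node and lymphatic genes were also listed. Of 21 lymphocyte and lymph node markers, 15 had no value and 6 were listed in AngII AAA vs. Saline, all 6 at least 4-fold higher in the AngII AAA pool, beside 63.1% of all entries. Their median log2 ratio of 2.46 was near the 2.26 over all entries. *Cxcl13*, the chemokine that draws B cells to follicles, was at 68.4 and 9.02 FPKM, and *Cd79b*, a subunit of the B cell receptor, at 21.9 and 3.28 FPKM. Against the AngII No AAA pool, 5 were listed, all 5 with the higher level in AngII AAA (median log2 ratio 2.05, beside 1.63 over all entries), and in AngII No AAA vs. Saline *Cxcl13* alone was listed (1.63). Summed over the 5 markers with all 3 values, the level was 131 FPKM in the AngII AAA, 43.8 FPKM in the AngII No AAA and 20.0 FPKM in the Saline pool, and none of the 5 was at 0. The T cell genes *Cd3d*, *Cd3e* and *Cd3g* and the lymph node chemokine genes *Ccl19* and *Ccl21a* had no value. Of 9 lymphatic endothelial markers, 3 were listed in AngII AAA vs. Saline, *Pdpn* (log2 ratio 2.95), *Lyve1* (2.46) and *Mmrn1* (1.58), and *Pdpn* and *Lyve1* were also listed as higher in AngII No AAA vs. Saline (1.44 and 1.68). *Pdpn* was the 1 gene of this list in AngII AAA vs. AngII No AAA (1.47), and *Prox1* and *Flt4* had no value. The part of these cells in the *Glycam1* values was not tested.

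Genes that share a known setting with *Lrg1* were listed in 2 groups. Of 29 acute phase genes and targets of STAT3, the transcription factor downstream of interleukin-6, 13 were listed in AngII AAA vs. Saline, 10 in AngII No AAA vs. Saline and 4 in AngII AAA vs. AngII No AAA, and each was higher in the first-named library, as were 84.6%, 63.5% and 79% of all entries. Their median log2 ratios were 2.90, 1.81 and 1.59, beside 2.26, 1.16 and 1.63 over all entries. At least 4-fold differences were seen for 11, 3 and 0 of them, beside 63.1%, 11.9% and 31.5% of all entries. *Hp*, which encodes haptoglobin, was at 1292 FPKM in the AngII AAA and 119.5 FPKM in the Saline pool, *Lcn2* at 187 and 6.66 FPKM, and the protease inhibitor gene *Timp1* at 325 and 6.52 FPKM. *Il6* itself was at 6.16 FPKM and listed at 0 in the Saline pool. In AngII No AAA vs. Saline, *Lcn2* (3.20), *Serpina3n* (2.95) and *Hp* (2.49) had the largest log2 ratios. The 10 genes with all 3 values summed to 2495 FPKM in the AngII AAA, 1476 FPKM in the AngII No AAA and 266 FPKM in the Saline pool.

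Of 24 genes of TGF-β and ALK1 signalling, 2 were listed in AngII AAA vs. Saline, 3 in AngII No AAA vs. Saline and 2 in AngII AAA vs. AngII No AAA, all higher in the first-named library, as were 84.6%, 63.5% and 79% of all entries. The ligand gene *Tgfb1* was at 78.0 and 22.7 FPKM in AngII AAA vs. Saline, a log2 ratio of 1.78. The median log2 ratios of the group were 2.16, 1.14 and 1.41, each below the 2.26, 1.16 and 1.63 over all entries. No value was read for *Eng*, the gene of endoglin, or for *Acvrl1*, *Smad1* and *Id1*.

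The rest of the endothelin system was nearly without values. Of 9 other genes, 1 was listed, *Ecel1*, a peptidase of the endothelin-converting family, at 3.48 FPKM in the AngII No AAA and 9.63 FPKM in the Saline pool (log2 ratio -1.47). The ligand genes *Edn1*, *Edn2* and *Edn3*, the endothelin A receptor gene *Ednra* and the converting enzyme genes *Ece1* and *Ece2* were not among the entries kept by the authors' filter. Their levels could therefore not be set beside that of *Ednrb*.

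**Figure D3:**
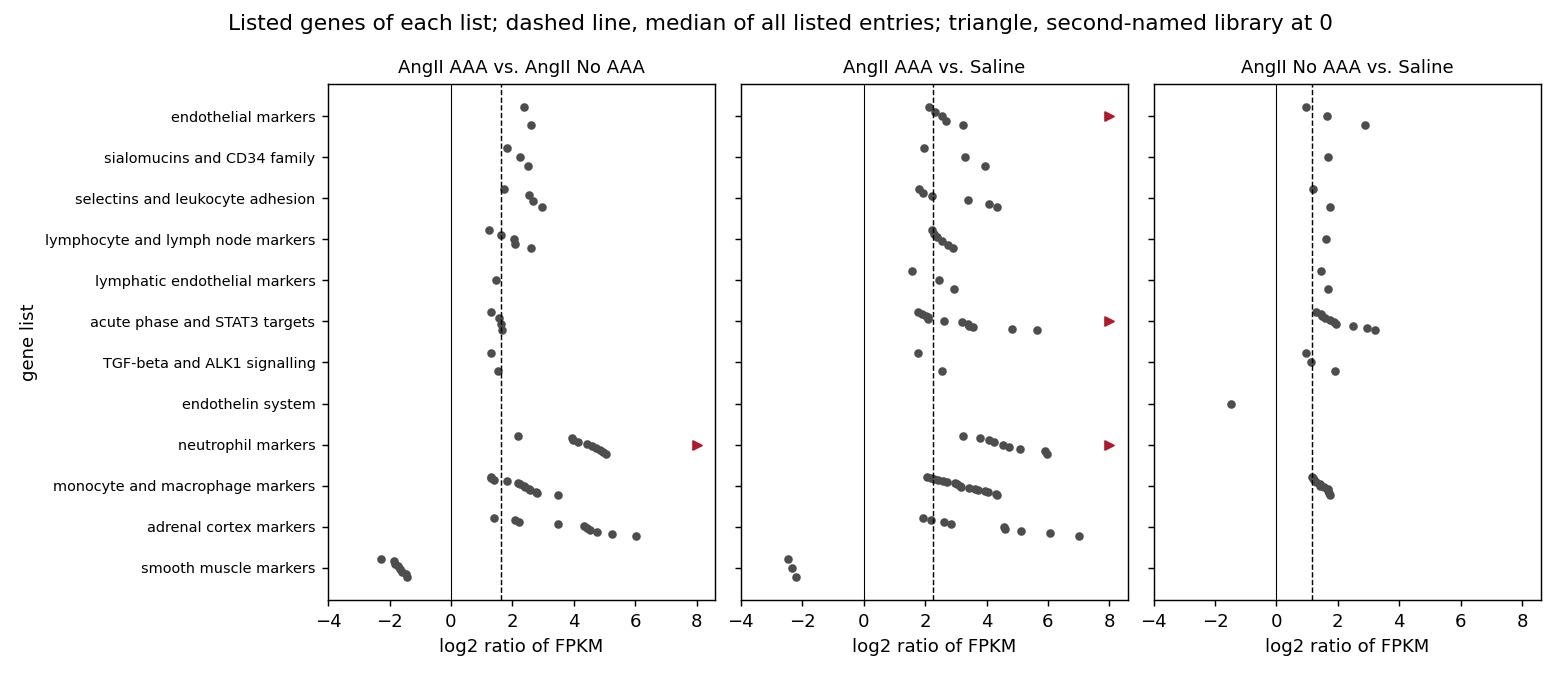
Log2 ratio of FPKM (horizontal axis) of the listed genes of 12 gene lists (rows, 1 point per gene) in the 3 comparisons, with a dashed line at the median of all listed entries and a triangle where the second-named library is at 0. Endothelial, sialomucin, adhesion, lymphoid and acute phase genes lie to the right of 0, and smooth muscle genes lie to the left in both AngII AAA comparisons. The adrenal cortex, neutrophil and smooth muscle rows are empty for AngII No AAA vs. Saline.

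Markers of other cells differed between the same libraries. For all listed entries, 79% were higher in the first-named library in AngII AAA vs. AngII No AAA, 84.6% in AngII AAA vs. Saline and 63.5% in AngII No AAA vs. Saline. The median log2 ratios over entries with both values above 0 were 1.63, 2.26 and 1.16 in the same order. Of 14 adrenal cortex markers, 10 were higher in the AngII AAA than in the AngII No AAA pool and 9 than in the Saline pool, with median log2 ratios of 4.37 and 4.57, and 0 were listed in AngII No AAA vs. Saline. Their summed level over the 8 genes with all 3 values was 529.6 FPKM in the AngII AAA, 40.3 FPKM in the AngII No AAA and 29.6 FPKM in the Saline pool, led by *Hsd3b1* at 134, 2.06 and 1.05 FPKM. Of 24 neutrophil markers, 11 were higher in the AngII AAA than in the AngII No AAA pool and 10 than in the Saline pool, with median log2 ratios of 4.51 and 4.54, and 0 were listed in AngII No AAA vs. Saline. Their sum over 9 genes was 1269.6 FPKM in the AngII AAA, 51.0 FPKM in the AngII No AAA and 55.4 FPKM in the Saline pool, with *Stfa2l1* at 0 in the latter libraries. Of 19 monocyte and macrophage markers, 13, 17 and 11 were listed in AngII AAA vs. AngII No AAA, AngII AAA vs. Saline and AngII No AAA vs. Saline, all higher in the first-named library, with median log2 ratios of 2.37, 3.15 and 1.43, and their sum over 17 genes was 2865, 764 and 289.9 FPKM in the libraries of AngII AAA, AngII No AAA and Saline animals. Of 18 smooth muscle markers, which define the aortic wall, 8 were lower in the AngII AAA than in the AngII No AAA pool and 3 than in the Saline pool (median log2 ratios -1.70 and -2.32). In AngII No AAA vs. Saline, 0 smooth muscle markers were listed. Over *Itga8*, *Lmod1* and *Synpo2*, the 3 with all 3 values, the sum was 70.9 FPKM in the AngII AAA, 218 FPKM in the AngII No AAA and 349.6 FPKM in the Saline pool. The contractile genes *Myh11*, *Tagln* and *Cnn1* had no Saline value, and this sum does not cover them. The part of these cell types in the values of the 4 genes was not tested.

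The entries most like each gene over the 3 libraries were found by the distance between their pairs of log2 ratios to the Saline pool, for 539 other entries of a single gene with all values above 0. For *Lrg1* these were *Tcf19*, *Lyve1*, *Ube2c*, *Wisp1* and *Mmp14*, at distances of 0.03 to 0.10. *Lyve1*, the hyaluronan receptor of lymphatic endothelium and of some macrophages, was at 48.0, 28.9 and 8.71 FPKM in AngII AAA, AngII No AAA and Saline. For *Ednrb* they included *Lyn*, *Hdc*, *Fermt3* and *Csf1r*, at distances of 0.09 to 0.15. *Csf1r*, the receptor of macrophage colony-stimulating factor, was at 99.4, 27.9 and 16.7 FPKM. *Glycam1* has no ratio to the Saline pool, and only 7 other entries of a single gene were at 0 there and above 0 in both AngII libraries. The nearest of them in the ratio of AngII AAA to AngII No AAA was *Hist1h2bn*, at 13.5 and 4.96 FPKM, with a log2 ratio of 1.44 against 2.21 for *Glycam1*. Likeness over 3 libraries rests on 2 ratios that share a denominator and is a description.

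**Figure D4:**
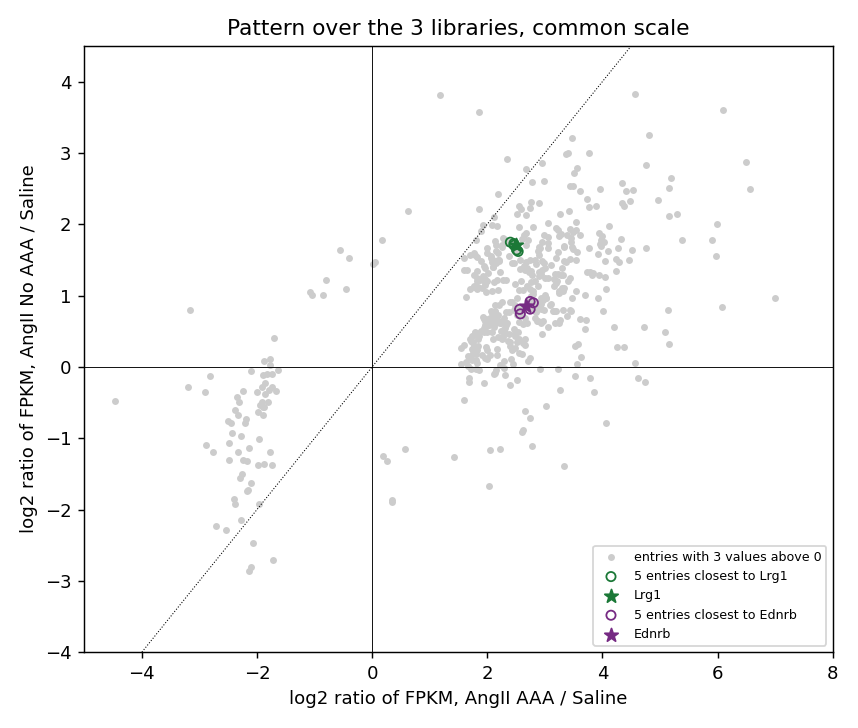
Log2 ratio of AngII No AAA to Saline (vertical axis) against log2 ratio of AngII AAA to Saline (horizontal axis), 1 point per entry with 3 values above 0, with *Lrg1* and *Ednrb* as stars, the 5 entries closest to each as open circles, and a dotted line where both ratios are equal. Both genes lie below the dotted line, *Lrg1* at 2.50 and 1.70 and *Ednrb* at 2.67 and 0.86, and *Glycam1* and *Emcn* are absent because a value is 0 or missing.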

How the data were processed

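Pooled RNA of 3 suprarenal cohorts was sequenced, 1 library each. Per the labels and the paper's methods, the authors used FastQC for read quality, HISAT2 for alignment, and Cufflinks with Cuffdiff for quantification, with the mouse build mm9. Tool versions and the annotation are not given in the sources used here. The deposited values are FPKM, scaled by Cuffdiff within the 2 libraries of each file. Each file lists entries that the authors kept at an unadjusted p-value under 0.05, and their log2 fold changes, test scores, p-values and q-values were not used. Of these p-values only the range was read.

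Log2 ratios were computed from the FPKM values of 1 file without a pseudocount. For levels over 3 libraries, the constant by which a library differed between files was divided out. No test was made, since each cohort had 1 library. Called entries were those at least 4-fold apart or at 0 in 1 library.

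The 4 genes and the 17 gene lists were chosen with earlier results of these data known. Genes named are the 4 genes, up to 4 genes per list and comparison with the largest absolute finite log2 ratio and at least 1 FPKM in the higher library, genes at 0 in 1 library, and the 5 nearest entries. Defining markers without a value, the common-scale levels of named genes, *Vcam1* and *Stfa2l1* were named for context. A few genes that the rule names are not reported here. Older symbols were matched to RefSeq synonyms. Promoter windows come from RefSeq (GRCm38.p6), with no coordinates carried over to mm9. Alternatives were pseudocounts of 1 and 0.1, at least 1 FPKM in the higher library, single-gene entries, folds of 3 and 8, the scale as listed and, chosen after seeing the data, the scale tied through the Saline library. The calculations were tested on simulated data. Python 3.11.15, pandas 2.3.3, numpy 2.4.6 and matplotlib 3.10.9 were used.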

Additional observations from a re-analysis of the deposited data

How the results depend on the processing

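All 23 alternative values of the 4 genes' log2 ratios and FPKM levels kept their direction and moved by less than 1.5 times. For *Glycam1* in AngII AAA vs. AngII No AAA, the log2 ratio was 2.07 with a pseudocount of 1 and 2.26 from the values of the other files. Against the Saline library it has no ratio, and none was computed under a pseudocount. The numbers of entries past the fold depended on the fold itself. At least 3-fold differences gave 313 higher and 81 lower entries for AngII AAA vs. AngII No AAA, 109 lower entries for AngII AAA vs. Saline, and 147 higher and 48 lower entries for AngII No AAA vs. Saline. At least 8-fold differences gave 54 and 14, 185 and 22, and 18 and 5 entries, higher and lower, in the same order of comparisons. A pseudocount of 1 gave 21 lower entries against AngII No AAA and 43 against Saline for the AngII AAA pool, since entries with low FPKM then have smaller ratios. Of 38 gene list medians, 37 moved by less than 1.5 times with a pseudocount of 1. No paired analysis was possible because each cohort has 1 library, and for the same reason no replicate could be left out. The spread between animals is unknown, and the reads behind single values are not given.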

Other observations

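Few milk protein, Schwann cell, melanocyte, adipocyte and kidney markers were listed. These mark tissues near the aorta or other sites where the 4 genes are known to be active. Most skeletal muscle markers were listed, as were most of the adrenal cortex markers given above. Of all listed entries, 110 of 715 were lower in the first-named library in AngII AAA vs. Saline. In AngII No AAA vs. Saline, 206 of 564 were lower. Of 11 milk protein and mammary markers, which cover the other tissue known for *Glycam1*, *Xdh* alone was listed, at 45.9 FPKM in the AngII AAA and 13.3 FPKM in the Saline library, and the casein genes *Csn2* and *Csn3* had no value. Of 14 Schwann cell and melanocyte markers, lineages that depend on *Ednrb* in development, *Sox10* and *Mbp* were listed as lower in the AngII No AAA than in the Saline library, with log2 ratios of -1.26 and -1.02. Of 14 adipocyte markers, *Retn* alone was listed, with a log2 ratio of 1.98 in AngII No AAA vs. Saline. Of 11 kidney markers, *Slc34a1* was lower in both AngII libraries than in the Saline library, with log2 ratios of -2.38 and -1.97, and *Kap* was lower in the AngII No AAA library (-2.88). Of 15 skeletal muscle markers, 5 were listed in AngII AAA vs. Saline and 13 in AngII No AAA vs. Saline, all lower in the AngII library, with median log2 ratios of -2.13 and -2.33. Their sum over the 5 markers with all 3 values was 82.0 FPKM in the AngII AAA, 80.7 FPKM in the AngII No AAA and 372 FPKM in the Saline library. The part of muscle or kidney RNA in the Saline values of the 4 genes was not tested.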
